A study of Nasturtium officinale with 24 samples.

Results

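Transcript contigs that were present at a low level in air and at or near 0 under water were followed in watercress (Nasturtium officinale), which belongs to the cabbage family and lives at the water's edge. CPM here is the estimated count of a contig divided by the library's total, times 1000000, and group means were taken over 3 libraries. A contig was chosen when its group mean was under 0.2 CPM in all 4 submerged groups and at least 1 CPM in all 4 air groups, with a mean over the 8 groups under 4 CPM. This gave 19 of 80741 contigs, fewer than the 300 at which the list would have been cut. The level in air, the level under water and the difference between them chose the contigs, so these values are given as a description with no test.

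Plants of about 3 weeks, raised at 23 °C in short days (8 h light, 16 h dark), were wholly submerged in tubs of water or stayed in air in tubs of the same kind. The 8 groups were petioles (leaf stalks) in air at 1 day and 2 days, petioles under water at 1 day and 2 days, and the same 4 groups for stems. Each library came from a pool of 5 plants, and all plants shared the species, the growth conditions and the age, with no genotype or line stated. Library totals ran from 17617430 to 48928331 estimated counts, so that a count of 3 in a library was 0.0613 to 0.170 CPM.

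As background, water slows the exchange of gases between a shoot and its surroundings, so that oxygen and carbon dioxide become scarce and the gaseous hormone ethylene builds up in the tissue. Semi-aquatic plants meet this with changes in growth, such as elongation of stems or leaf stalks towards the surface. Shoots that form under water commonly have thinner cuticles and fewer stomata than shoots in air. The files do not pair contig identifiers with gene names, so no gene, function or tissue marker can be assigned to any of the 19 contigs, and the labelled tissues could not be checked against marker genes. The sequences of the contigs were not used here. In pooled tissue, fewer cells of a type and less RNA per cell cannot be told apart.

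Among 8937 contigs with at least 1 CPM in all air groups and a mean under 4 CPM, the median ratio of the water level to the air level was 0.914. In 76 of them the mean of the water groups was under 0.1 of that of the air groups. All 4 water groups were under 1 CPM in 353 contigs, under 0.5 CPM in 81 and under 0.2 CPM in the 19 described here, which are 0.213% of the 8937. The same rule with air and water exchanged gave 27 of 8960 contigs, or 0.301%, so such contigs were few in both directions.

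**Figure D1:**
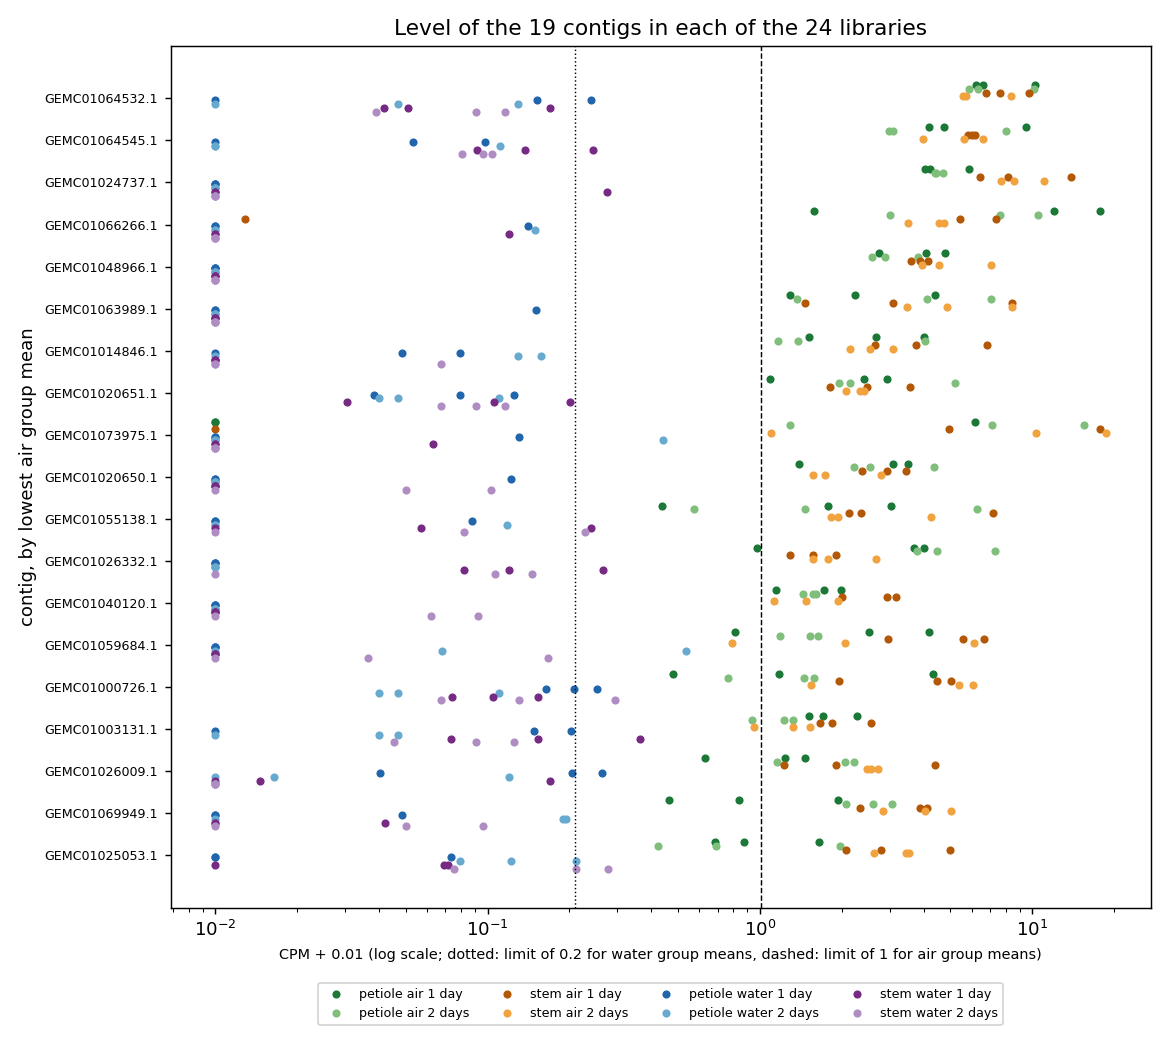
Level of each of the 19 contigs (vertical axis) in each of the 24 libraries as CPM + 0.01 on a log axis, coloured by group. The air libraries lie to the right of the water libraries of the same contig in 17 of 19 contigs, levels on which the rule set its limits. GEMC01066266.1 and GEMC01073975.1 have air libraries at or near 0.

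The contig with the highest minimum air group mean was GEMC01064532.1 (526 bases). In air it stood at 6.58, 10.2 and 6.20 CPM in petioles at 1 day, at 5.86, 6.31 and 10.1 CPM in petioles at 2 days, at 6.76, 9.74 and 7.63 CPM in stems at 1 day and at 5.72, 5.57 and 8.37 CPM in stems at 2 days. Its 4 air group means differed by 1.23-fold, the least of all 19. Under water it had 0.142, 0.230 and 0 CPM in petioles at 1 day and 0.120, 0.0369 and 0 CPM in petioles at 2 days. In submerged stems it had 0.0409, 0.0317 and 0.160 CPM at 1 day and 0.0805, 0.106 and 0.0289 CPM at 2 days. The lowest air library of this contig was 24.2 times its highest water library, the widest gap among the contigs with a count under water.

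Next came GEMC01064545.1 (1037 bases), whose identifier number lies 13 after that of the first. Its air libraries ran from 2.98 to 9.51 CPM with a median of 5.72, and its water libraries from 0 to 0.234 CPM with a median of 0.0837. It was present in every air library and had a count in 9 of 12 water libraries.

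GEMC01048966.1 (1807 bases) was the 1 contig with no count in any of the 12 water libraries. In air it stood at 4.79, 4.06 and 2.74 CPM in petioles at 1 day, 2.88, 3.79 and 2.58 CPM in petioles at 2 days, 3.86, 4.12 and 3.57 CPM in stems at 1 day and 7.04, 3.92 and 4.56 CPM in stems at 2 days. These libraries held 1377 counts. A count of 0 over the 12 water libraries together, with 3 counts as the limit, corresponds to 0.00810 CPM or 0.197% of the level in air. The 95% exact interval, as given below for the other contigs, ends at 0.242%. The estimated counts of this contig in air were all fractional. Reads that fit several contigs are divided among them by the quantification tool, so the 0 and its interval may depend on that division, which was not tested.

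The other 18 contigs had counts in some water libraries, so the word silenced says more than the files show. Summed over the 19 contigs, air libraries held 50.8 to 102.7 CPM with a median of 67.9, and water libraries held 0.620 to 1.40 CPM with a median of 1.04. The lowest air sum was that of replicate 1 of petioles at 2 days and the highest that of replicate 1 of stems at 1 day. The 12 water libraries held 370 counts of these contigs against 23612 in air. The level under water was thus 1.42% of that in air (95% exact interval 1.27 to 1.57%). Intervals here cover counting error only, because they treat the pooled counts as independent. PCR copies were not marked, so even this error may be larger than given. By group, the water counts were 86 and 81 in petioles at 1 day and 2 days and 113 and 90 in stems. These counts are not scaled by library totals. Summed over the 19 contigs, submerged petioles had group means of 0.970 ± 0.112 CPM (SD) at 1 day and 1.02 ± 0.106 CPM at 2 days. Submerged stems had 1.10 ± 0.420 CPM at 1 day and 1.03 ± 0.0697 CPM at 2 days. The SD of submerged stems at 1 day was wider than the distance between any of these means.

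The share of the air level that remained under water was highest for GEMC01003131.1 (604 bases), at 6.69% of the air level (95% exact interval 4.68 to 9.31%), with 38 counts in 10 of the 12 water libraries. It was 4.26% (3.11 to 5.71%) for GEMC01000726.1 (522 bases) and 4.05% (2.77 to 5.74%) for GEMC01025053.1 (724 bases). It was 0 for GEMC01048966.1. The lowest among the contigs with a count under water were GEMC01024737.1 (2107 bases) at 0.303% (0.131 to 0.599%), GEMC01063989.1 (3585 bases) at 0.338% (0.110 to 0.791%) and GEMC01066266.1 (1649 bases) at 0.392% (0.179 to 0.746%). The intervals pool the counts of 12 libraries and do not cover the spread between them. They also do not cover the division of reads that fit several contigs. GEMC01048966.1, GEMC01024737.1, GEMC01063989.1 and GEMC01066266.1 had fractional counts in air, as did GEMC01025053.1. GEMC01003131.1 and GEMC01000726.1 had whole counts in all libraries. Because the rule set a fixed limit under water, contigs with a low level in air could keep a larger share of it.

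The residual counts were spread over libraries in some contigs and bundled in others. GEMC01000726.1 had the most, 47 counts, and it had a count in all 12 water libraries. Its water libraries stood at 0.198, 0.154 and 0.242 CPM in petioles at 1 day, 0.0300, 0.0369 and 0.10 CPM in petioles at 2 days, 0.143, 0.0950 and 0.0640 CPM in stems at 1 day and 0.121, 0.283 and 0.0577 CPM in stems at 2 days. GEMC01020651.1 (459 bases) also had a count in all 12, between 0.0204 and 0.190 CPM, 27 counts in all. In contrast, the 8 counts of GEMC01024737.1 lay in replicate 3 of stems at 1 day, and the 5 counts of GEMC01063989.1 in replicate 1 of petioles at 1 day. GEMC01059684.1 (389 bases) had 10 of its 17 counts in replicate 3 of petioles at 2 days, where it stood at 0.524 CPM. The 23 counts of GEMC01026332.1 (1536 bases) lay in stem libraries, with 0.0721, 0.110 and 0.256 CPM (1 day) and 0, 0.0964 and 0.136 CPM (2 days). All 6 submerged petiole libraries had none.

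**Figure D2:**
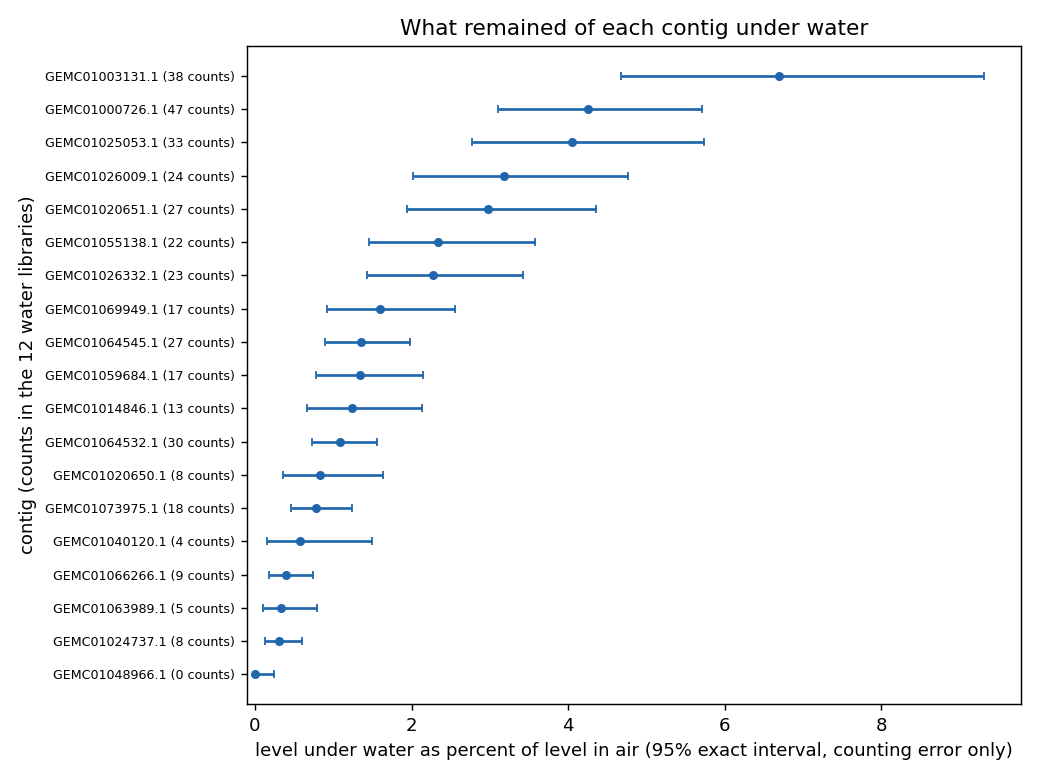
Level over the 12 water libraries as a percent of the level over the 12 air libraries for each contig, with 95% exact intervals that cover counting error only. The values run from 0 for GEMC01048966.1 to 6.69% for GEMC01003131.1.

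In the contrast that chose them, edgeR called 18 of the 19 lower under water in all 4 comparisons, and nothing is read from this count. Of all contigs tested, 4.33% were called lower in all 4. In petioles 24.3% were called at 1 day (13.5% higher, 10.8% lower under water) and 33.5% at 2 days (16.3% higher, 17.2% lower). In stems 19.1% were called at 1 day (9.99% higher, 9.09% lower) and 20.9% at 2 days (10.4% higher, 10.5% lower). For 17 of 19 contigs the lowest air library lay above the highest water library, by 1.49 times for GEMC01059684.1 and by more for the others. GEMC01073975.1 (276 bases, the shortest) and GEMC01066266.1 were the exceptions. The rule set its limits on these same levels, so nothing is read from the 17 of 19 either. GEMC01073975.1 stood at 0, 0 and 6.18 CPM in petioles in air at 1 day, at 7.09, 1.29 and 15.5 CPM in petioles at 2 days, at 17.7, 0 and 4.95 CPM in stems at 1 day and at 10.3, 18.7 and 1.09 CPM in stems at 2 days. Replicates of 1 group thus ranged from no count to 446 counts. Its highest water library, replicate 2 of petioles at 2 days, stood at 0.431 CPM. GEMC01066266.1 read 17.7, 12 and 1.58 CPM (1 day) and 7.63, 10.5 and 3.00 CPM (2 days) in petioles in air. In stems it read 0.00287, 7.38 and 5.43 CPM (1 day) and 4.73, 4.53 and 3.48 CPM (2 days). The library at 0.00287 CPM, replicate 1 of stems at 1 day, is the one in which GEMC01073975.1 had 17.7 CPM.

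The estimated counts of both contigs were fractional wherever they were above 0, in 12 libraries for GEMC01073975.1 and in 15 for GEMC01066266.1. The quantification tool divides reads that fit several contigs among them, so contigs with near-identical copies have uncertain values. The part of such sharing in these gaps was not tested. Of the 19 contigs, 6 had counts that were whole within 1e-06 in all 24 libraries. These were GEMC01064532.1, GEMC01014846.1 (458 bases), GEMC01020651.1, GEMC01000726.1, GEMC01003131.1 and GEMC01069949.1 (395 bases). That is 31.6%, beside 28.1% of the 63905 contigs with a count in any library.

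The spread between replicates in air differed widely among the 19 contigs. The SD of log2(CPM + 0.5) between replicates of an air group had a median of 0.50 over the 19. It had a median of 0.36 over the 8937 contigs with the same minimum in air and the same cap. Over all 34627 contigs with at least 1 CPM in every air group its median was 0.28. The cap was on the mean of air and water groups. Contigs near 0 under water could therefore stand higher in air than others of the 8937. Of the 19, 14 lay above the median of the 8937 and 17 above that of the 34627. The lowest was 0.23, for GEMC01003131.1, and the highest 2.11, for GEMC01073975.1. GEMC01003131.1 stood at 2.27, 1.69 and 1.51 CPM in petioles at 1 day, 1.32, 0.930 and 1.22 CPM in petioles at 2 days, 2.55, 1.65 and 1.83 CPM in stems at 1 day and 0.944, 1.51 and 1.32 CPM in stems at 2 days. Few counts lie behind such levels, from 22 to 81 per air library in this contig.

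After the group means were removed, the Pearson correlation between 2 of the 19 contigs over the 12 air libraries had a median of 0.18 over 171 pairs, beside a median of 0.10 over all pairs of the 34627 contigs. All these values share the same libraries, their depth and their scaling. The highest, 0.89, was between GEMC01020651.1 and GEMC01055138.1 (432 bases), and the lowest, -0.83, between GEMC01024737.1 and GEMC01066266.1. GEMC01055138.1 read 0.429, 1.77 and 3.02 CPM (1 day) and 0.563, 1.46 and 6.24 CPM (2 days) in petioles. Its highest library in air, at 7.16 CPM, was replicate 1 of stems at 1 day, and the other libraries of that group stood at 2.35 and 2.12 CPM.

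Stems and petioles in air were compared because the rule asked of both tissues the same minimum and did not use the difference between them. The minimum in every air group and the cap still left out contigs nearly absent from 1 tissue. The contigs tested as a whole had no such limits, so shares over all contigs are given for scale only. edgeR's quasi-likelihood test, fitted to all 24 libraries with Benjamini-Hochberg adjustment across 53919 contigs, called none of the 19 at 1 day. It called 8.26% of all contigs tested there, 3.54% higher and 4.72% lower in stem. At 2 days it also called none of the 19, where 9.77% of all contigs were called, 3.84% higher and 5.92% lower in stem. All 19 passed the filter on low counts. At an unadjusted p under 0.05 there were 2 of 19 at 1 day and 3 at 2 days, beside 20.6% and 22.5% of all contigs. DESeq2 called 0 and 1 of the 19, beside 11.4% and 13.4% of all contigs. limma-voom called 1 and 3, beside 7.96% and 9.94%. The median log2 difference, stem minus petiole, was 0.45 at 1 day and 0.11 at 2 days, beside 0.06 on both days over all contigs, and 12 and 11 of the 19 were positive. The SE of a single contig's log2 difference was 0.33 to 1.59 at 1 day, so that differences of moderate size were not detectable for many of them.

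**Figure D3:**
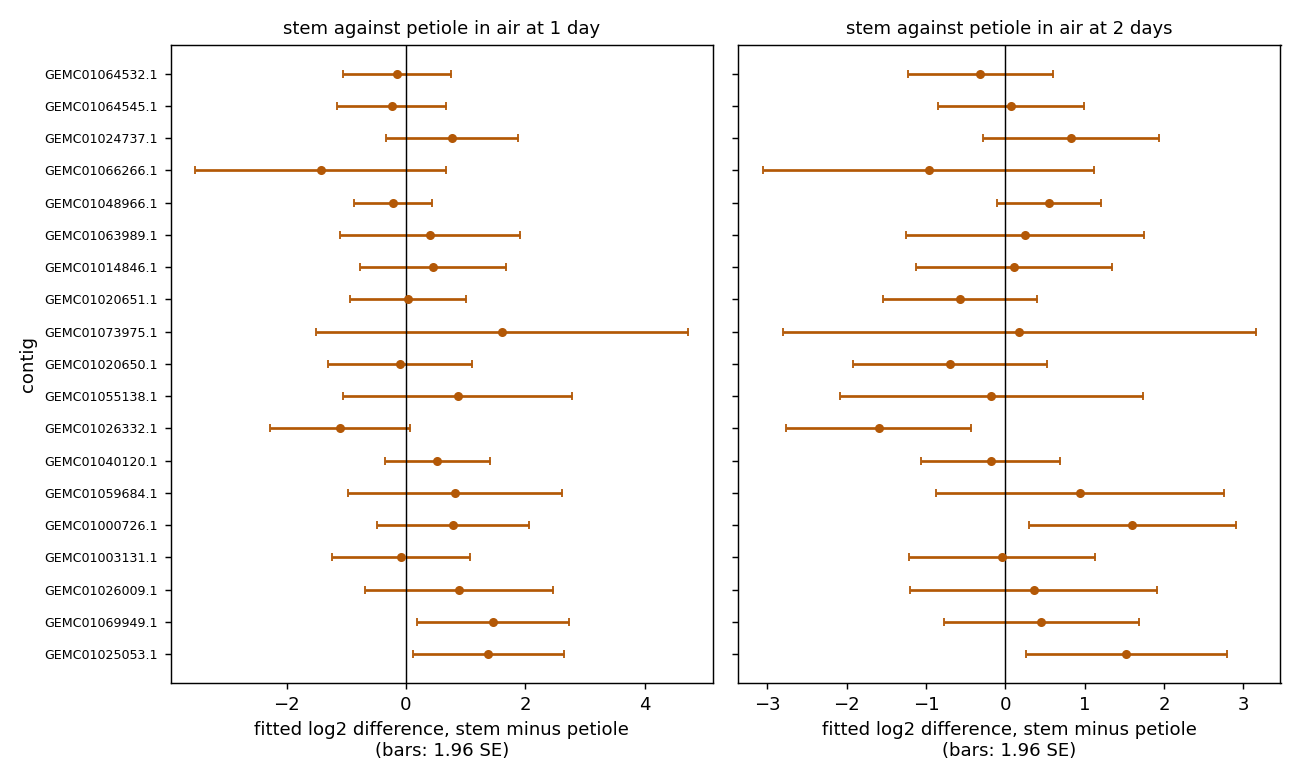
Fitted log2 difference between stem and petiole in air for each contig at 1 day (left) and 2 days (right), with bars for 95% intervals from the SE by the normal approximation. Values above 0 are higher in stem, and none of the 19 passed the test after adjustment over all contigs on either day.

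With petiole and stem libraries of both days set side by side, 2 contigs had all 6 stem libraries above all 6 petiole libraries, on CPM and on TMM-scaled CPM (CPM with totals scaled so that most contigs do not differ). This held for 10.5% of all tested contigs on CPM and for 5.21% on TMM-scaled CPM, and the reverse order for 3.53% and 5.54%. Taken by day, all 3 stem libraries lay above all 3 petiole libraries in 4 of the 19 contigs at 1 day (24.1% of all tested) and in 4 at 2 days (23.6%). They lay below in 0 at 1 day (6.43%) and in 1 at 2 days (8.86%). On TMM-scaled CPM the counts above were 3 (13.8%) and 2 (16.7%), and those below 0 (10.5%) and 1 (12.9%). For GEMC01024737.1 the petiole libraries read 4.19, 4.03 and 5.83 CPM (1 day) and 4.69, 4.37 and 4.43 CPM (2 days). Its stem libraries read 13.9, 6.44 and 8.14 CPM (1 day) and 7.66, 11.0 and 8.58 CPM (2 days). Its log2 difference was 0.78 ± 0.57 (SE) at 1 day and 0.83 ± 0.57 at 2 days (edgeR adjusted p = 0.50 and 0.444). For GEMC01025053.1, of lower level, the petiole libraries read 1.65, 0.866 and 0.677 CPM (1 day) and 0.412, 0.683 and 1.97 CPM (2 days). Its stem libraries read 4.99, 2.78 and 2.06 CPM (1 day) and 2.62, 3.51 and 3.43 CPM (2 days). Its log2 difference was 1.38 ± 0.64 at 1 day and 1.52 ± 0.65 at 2 days (edgeR adjusted p = 0.229 and 0.159). Under limma-voom the differences at 2 days had adjusted p = 0.0283 and 0.00626. These contigs were singled out after their values were seen.

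GEMC01026332.1 had the reverse order at 2 days. Its petiole libraries read 3.78, 7.28 and 4.48 CPM, all above the stem libraries at 1.56, 2.65 and 1.78 CPM, with a log2 difference of -1.60 ± 0.60 (edgeR adjusted p = 0.115, the lowest of any of the 19 in a comparison of tissues). DESeq2 gave this difference an adjusted p of 0.0348 and limma-voom one of 0.0101. At 1 day the tissues overlapped, the petiole libraries reading 0.969, 3.68 and 3.99 CPM while the stem libraries read 1.56, 1.28 and 1.89 CPM. Under water the same contig had its counts in stems, as given above.

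GEMC01069949.1 had petiole libraries of 0.454, 0.828 and 1.93 CPM at 1 day, below its stem libraries of 4.10, 2.32 and 3.86 CPM, a log2 difference of 1.46 ± 0.65 (edgeR adjusted p = 0.203, limma-voom adjusted p = 0.0158). At 2 days its petiole libraries at 2.07, 2.59 and 3.05 CPM overlapped with the stem libraries at 2.83, 5.02 and 4.05 CPM.

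**Figure D4:**
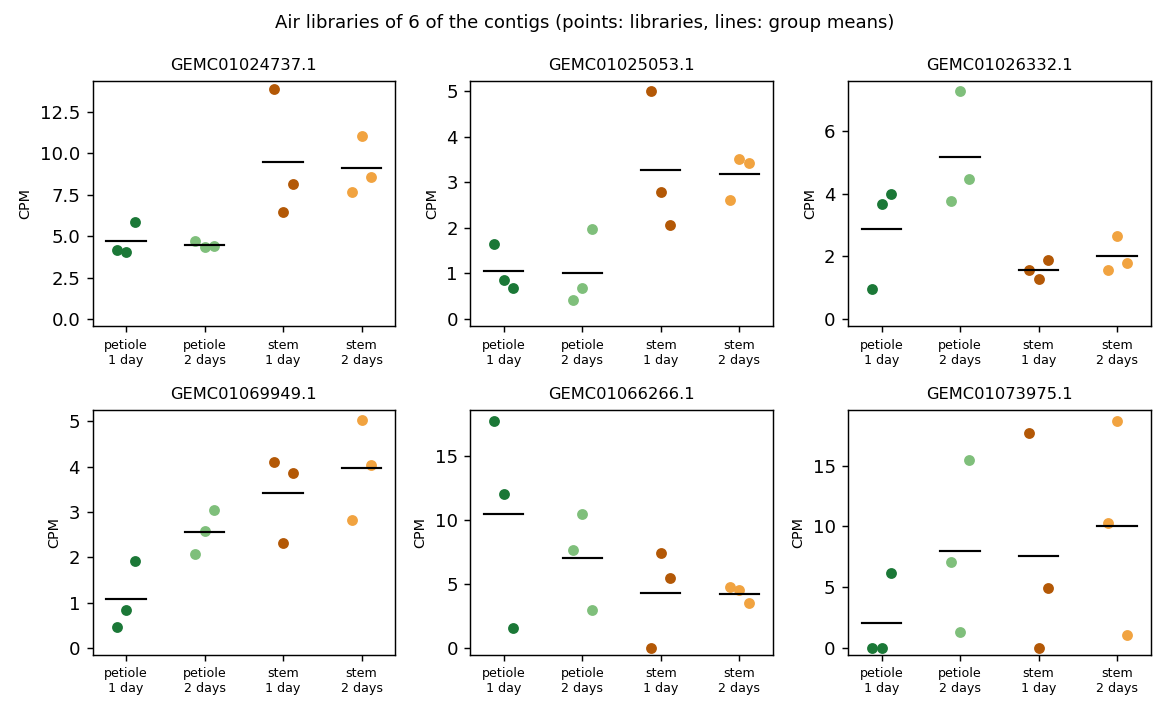
CPM in the 12 air libraries of 6 contigs, with a point for each library and a line for each group mean. GEMC01024737.1 and GEMC01025053.1 have every stem library above every petiole library, while GEMC01066266.1 and GEMC01073975.1 have libraries at or near 0 beside others at 17.7 CPM.

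The air groups of 1 day and 2 days were compared next, since the rule did not use the difference between days. The minimum in every air group and the cap limited these differences too, so shares over all contigs are again for scale only. edgeR called none of the 19 in petioles, where 0.0148% of all contigs were called (0.013% higher and 0.00185% lower at 2 days), and none in stems, where 0.0% were called. No contig of the 19 had an unadjusted edgeR p under 0.05 in either tissue, beside 7.19% of all contigs in petioles and 2.39% in stems. DESeq2 also called none, beside 0.514% of all contigs in petioles and 0.0742% in stems, and limma-voom called none, beside 0.0% in both. At an unadjusted p under 0.05 DESeq2 had 1 of 19 in petioles (7.97% of all contigs) and 0 in stems (2.9%). limma-voom had 2 in petioles (5.77%) and 3 in stems (2.82%). The median log2 difference, 2 days minus 1 day, was -0.03 in both tissues. The tissue by day interaction, which tests whether stem and petiole differed more on one day, called none of the 19 and 0.0% of all contigs. In edgeR no contig of the 19 had an unadjusted p under 0.05 there, beside 2.65% of all contigs. DESeq2 called none, beside 0.106% of all contigs, and limma-voom none, beside 0.0%, with 0 and 2 of the 19 at an unadjusted p under 0.05 (3.04% and 2.46% of all contigs). The petiole means of GEMC01073975.1 were 2.06 ± 3.57 CPM (SD, n = 3) at 1 day and 7.94 ± 7.12 CPM at 2 days, and the replicates of the 2 days overlap.

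Levels of different contigs can be set beside each other only per length, for which the deposited TPM was used. In air the mean TPM over 12 libraries was highest for GEMC01073975.1, at 47.3 ± 49.6 (SD), and next for GEMC01064532.1, at 16.0 ± 3.66. GEMC01059684.1 had 10.4 ± 7.34 TPM, GEMC01069949.1 had 9.53 ± 4.93 TPM and GEMC01055138.1 had 8.28 ± 6.63 TPM. The SD of the first is wider than its distance to the second. The third to the fifth differed by less than the SD of any of them. The lowest were GEMC01040120.1 (1064 bases) at 1.56 ± 0.563 TPM and GEMC01063989.1, the longest contig, at 0.936 ± 0.607 TPM. The 19 contigs had a median length of 604 bases, with 12 of them under 1000 bases (63.2%). In all 80741 contigs the median was 697 bases and the share 62.2%. In the 63905 contigs with a count in any library they were 891 bases and 54.6%.

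The identifiers carry running numbers, and contigs with neighbouring numbers were examined because 4 of the 19 have another of the 19 within 20 numbers. What the order of numbers stands for is not given in the sources used here. GEMC01020650.1 (471 bases) and GEMC01020651.1 follow each other directly. In air they stood at 1.38 to 4.36 CPM and at 1.08 to 5.21 CPM. Next to them lies GEMC01020649.1 (1373 bases), which is not among the 19. Its group means were 59.9 and 57.5 CPM in petioles in air and 52.6 and 38.2 CPM in stems, against 1.37, 0.896, 1.74 and 1.52 CPM under water.

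Of the 19 contigs, 10 had at least 1 contig outside the list within 5 numbers that edgeR called lower under water in all 4 comparisons with air. Such calls were made for 4.33% of all tested contigs, and 23.3% of all tested contigs had such a neighbour. Among the 2337 contigs that were themselves called lower in all 4 comparisons the share was 53.7%, close to the 52.6% of the 19. The neighbours within 5 numbers comprised 126 tested contigs, of which 28 were lower in all 4 comparisons.

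In 27 of 29 pairs of a contig and such a neighbour, the neighbour had the higher CPM in air, and the count was also 27 on TPM. The cap of the rule held for the 19 and not for their neighbours, so nothing is read from this count. GEMC01026009.1 (627 bases) stood at 0.621 to 4.38 CPM in air. GEMC01026006.1 (1789 bases), 3 numbers before it, had group means of 513 and 498 CPM in petioles in air and 1050 and 817 CPM in stems, and of 23.0, 32.7, 20.3 and 42.1 CPM under water. GEMC01040120.1 stood at 1.12 to 3.15 CPM in air, and GEMC01040123.1 (1606 bases), 3 numbers on, at group means of 28.3, 21.1, 39.4 and 31.8 CPM in air and 0.226, 0, 0.0562 and 0.0962 CPM under water. Next to GEMC01059684.1 lie 5 contigs that were lower in all 4 comparisons. GEMC01059686.1 (1283 bases) was the most abundant of them, with air group means of 126, 168, 278 and 264 CPM and water group means of 1.25, 1.44, 2.00 and 1.65 CPM.

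GEMC01048966.1, the contig with no count under water, also lies among 5 such neighbours. All 5 kept counts in each of the 4 water groups. GEMC01048965.1 (2033 bases), directly before it, had group means of 250, 197, 261 and 266 CPM in air and 68.7, 68.7, 46.6 and 72.5 CPM under water. GEMC01024737.1 is followed by GEMC01024738.1 (1626 bases), with 6.66 and 7.74 CPM in petioles in air, 17.0 and 16.1 CPM in stems in air and 0.319, 0.522, 0.241 and 0.107 CPM under water. Both of these neighbouring contigs thus had higher group means in stems than in petioles in air. A contig of the 19 made up 0.266% of the summed air CPM of itself and its lower neighbours in the case of GEMC01026009.1, and 56.3% in the case of GEMC01000726.1. CPM is not per length, and the cap held for the chosen contigs alone, so nothing is read from these shares.

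**Figure D5:**
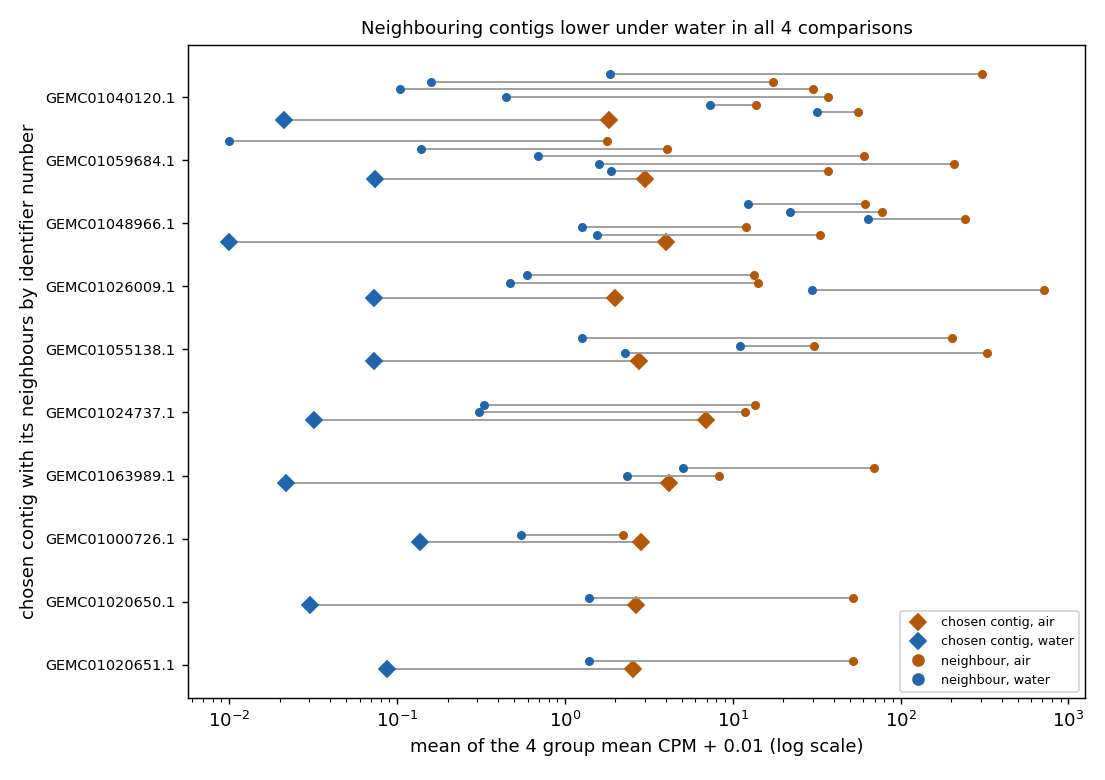
Mean level in air and under water (CPM + 0.01, log axis) of the 10 contigs with lower neighbours within 5 identifier numbers, drawn as diamonds, and of those neighbours, drawn as circles. The neighbour lies further right in air than the chosen contig in 27 of 29 pairs, where the cap of the rule held for the chosen contigs alone.

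The within-group correlation over the 12 air libraries between a contig and such a neighbour had a median of 0.23 over 29 pairs, with a range from -0.43 to 0.89. It was 0.88 between GEMC01020650.1 and GEMC01020649.1 and 0.89 between GEMC01055138.1 and GEMC01055137.1 (1288 bases). It was -0.43 between GEMC01048966.1 and GEMC01048965.1. Of the 6 contigs with whole counts in all libraries 2 had a lower neighbour, and of the 13 others 8 had one.

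The remaining 9 contigs had no such neighbour. GEMC01064532.1 and GEMC01064545.1, the first 2 by minimum air level, were among them, and so were GEMC01066266.1, GEMC01014846.1, GEMC01073975.1, GEMC01026332.1, GEMC01003131.1, GEMC01069949.1 and GEMC01025053.1. GEMC01064544.1 (1491 bases), directly before GEMC01064545.1, had higher group means under water, at 11.1, 11.2, 7.23 and 8.96 CPM against 3.46, 4.85, 3.40 and 2.57 CPM in air. GEMC01014846.1 stood at 1.16 to 6.80 CPM in air and at 0 to 0.148 CPM under water.

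The limits of the rule passed through a continuous range. Just inside the limit under water lay GEMC01000726.1, with a highest water group mean of 0.198 CPM, and GEMC01059684.1, with 0.194 CPM. Just outside lay GEMC01045957.1 (2819 bases) at 0.203 CPM and GEMC01018156.1 (1351 bases) at 0.204 CPM. Just inside the limit in air lay GEMC01025053.1, with a lowest air group mean of 1.02 CPM, and GEMC01069949.1, with 1.07 CPM. Just outside lay GEMC01012520.1 (454 bases) at 0.995 CPM and GEMC01059689.1 (1385 bases) at 0.993 CPM, the latter with 0 in all 4 water groups. A further 5 contigs met both limits with a mean over the 8 groups of 4.45 to 13.2 CPM and so exceeded the cap.

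The rule was also applied to 2 replicates of each group, and the replicate left out was then read. Without replicate 1 it chose 18 contigs, of which 8 also met both limits in the replicate left out. Without replicate 2 it chose 23, of which 9 did, and without replicate 3 it chose 16, of which 9 did. In 16 of 18, 20 of 23 and 15 of 16 of them all 4 air libraries left out lay above all 4 water libraries left out. The share over all contigs was not computed, so nothing is read from these counts. Among the contigs chosen, the highest value in a left-out water library was 2.39, 3.21 and 0.874 CPM. The lowest value in a left-out air library was 0 CPM each time. Between 13 and 14 of the contigs chosen from 2 replicates were among the 19.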

How the data were processed

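RNA was sequenced from 24 libraries, 3 for each of 8 groups, on pools of plants. Per the labels' protocols, libraries were made without keeping the strand, so antisense transcripts are not separated. The authors used kallisto, edgeR and limma per the submitters' processing notes, with versions and reference not given in the sources used here. The authors deposited estimated counts, not normalised, and TPM per contig. Lengths and effective lengths are as deposited, per the file headers.

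CPM was computed over library sums. For tests, estimated counts were rounded and filtered with filterByExpr by group (minimum count 10, minimum total 15), leaving 53919 contigs. Totals were scaled with TMM. edgeR 4.0.16 fitted 1 mean per group to all 24 libraries, without a replicate block (estimateDisp, glmQLFit, glmQLFTest). Calls were at an adjusted p under 0.05, and SE was derived from the F statistic. In petioles in air, libraries of 1 day and 2 days with the same replicate number deviated together from their group means (r = 0.41, 0.23 and 0.29, from the data, as the labels tie the number to nothing shared), so a fit with the number as a block is an alternative there. The procedure was also run on simulated counts with the same spread setting for all contigs. That run does not show how the test behaves on contigs with a wide spread between replicates. Alternatives used DESeq2 1.42.0 and limma 3.58.1 (voom), other scalings, filters and samples. Percent of air used rounded counts and an exact binomial interval. The labels speak of replicates but do not say whether the pools were harvested on separate occasions, so p-values measure the spread between these libraries, which may be technical.

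The members and lists were chosen with earlier results of these data known. By the rule for named contigs, those at the edges of the rule, with the highest levels and with the most or no counts under water were named; the others, and neighbouring contigs, were named after their values were seen.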

Additional observations from a re-analysis of the deposited data

How the results depend on the processing

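The number of contigs chosen was 8 with a limit of 0.1 CPM under water, 81 with 0.5 CPM and 10 with a limit of 2 CPM in air. It was 24 without the cap on the mean, 22 with TMM-scaled totals and 24 on TPM, of which 19, 18 and 6 were among the 19. It was 16 to 23 with 1 library, or 1 replicate of every group, left out. Between stem and petiole in air, DESeq2 called 1 contig at 2 days (GEMC01026332.1, beside 13.4% of all contigs), and limma-voom called 1 at 1 day (GEMC01069949.1, beside 7.96%) and 3 at 2 days (GEMC01024737.1, GEMC01025053.1 and GEMC01026332.1, beside 9.94%), against 0 in edgeR. The cause was not tested. In the other edgeR fits, including the fit to the 12 air libraries alone and every fit with 1 air library left out (0 to 0), none was called in any of the 5 comparisons. Over all fits, 3148 to 6676 contigs of the whole table were called between tissues at 1 day and 3457 to 7200 at 2 days. With library totals alone the median log2 difference between stem and petiole over all contigs was 0.27 at 1 day and 0.23 at 2 days, beside 0.06 with TMM, and 15 and 12 of the 19 were positive. With the replicate number as a block, 0 contigs of the 19 were called in each of the 5 comparisons, so the block changed no call. Between stem and petiole, between days in stem and for the interaction, the labels give the libraries only a shared number. The labels do not say whether they share more. Between petioles and stems same-numbered libraries had r = -0.10, 0.36 and 0.23 at 1 day and 0.14, -0.20 and -0.23 at 2 days. Between days in stems they had r = 0.08, -0.30 and 0.03. Over the 4 air groups same-numbered libraries correlated by over 0.1 in 7 of 18 pairs, and 17 of 36 matches were best with the own number. In petioles between days same-numbered libraries deviated together. A block fit to those 6 petiole libraries alone, chosen after the data were seen, also called 0. Within 1 identifier number, 7 contigs had a neighbour lower in all 4 comparisons (6.36% of all tested contigs had one), and within 10 there were 11 (39.3%), against 10 within 5 (23.3%), distances chosen after the data were seen. Depth limits single low contigs, such as GEMC01055138.1 and GEMC01069949.1, with 8 counts in their lowest air library.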
